A study of Mus musculus with 8 samples.

Results

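The 3 genes Asns, Ahcyl2 and Slc44a1, tied to a shortage of methionine and choline, were followed here through the livers of mice on a diet that lacks both. They were picked by symbol, as 3 of the 55416 rows of the deposited count table. Poly-A RNA was sequenced from 8 livers, 1 library per mouse, in 2 genotype groups of 4 numbered biological replicates, Sost-/- and SostPB/-. The study concerns overexpression of Sost, the gene of the Wnt inhibitor sclerostin, in steatohepatitis, and the labels do not state which group overexpresses it. As written, Sost-/- mice carry the null allele on both chromosomes and SostPB/- mice carry a PB allele over a null allele, so every mouse had at least 1 null allele. The meaning of PB and the age, sex and strain of the mice were not found in the labels. All 8 mice were on the MCD diet, taken in its usual sense as deficient in methionine and choline, and no group on another diet is analysed here. The comparison therefore concerns genotype on this diet, not the effect of the diet.

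Methionine is an essential amino acid and the source of S-adenosylmethionine, the main methyl donor of the cell. Spending that methyl group leaves S-adenosylhomocysteine, which the hydrolase encoded by Ahcy splits. When an amino acid runs short, uncharged transfer RNA activates the kinase GCN2, phosphorylation of eIF2 follows, and the transcription factor ATF4 is made and binds C/EBP-ATF response elements in its targets. Choline enters cells through transporters and is built into phosphatidylcholine, which hepatocytes need to export triglyceride in lipoproteins, and its lack is known to leave fat in the liver. Asns encodes asparagine synthetase, which makes asparagine from aspartate and glutamine and is a classic ATF4 target. Ahcyl2 encodes a relative of the hydrolase that is known as a partner of inositol trisphosphate receptors and ion transporters rather than as a working hydrolase. Slc44a1 encodes choline transporter-like protein 1 of the plasma membrane and mitochondria.

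The start-site sequences of these genes are shown first because Asns is known for 2 nutrient-sensing elements close to its start. Sequences are from RefSeq on GRCm38.p6, the build of the submitters' mm10, and run from 250 bases before to 50 bases after a start site, 5′ to 3′ along the gene. All 3 genes had an entry. Tars, the threonyl-tRNA synthetase gene and another ATF4 target, is added because it was the other readable gene of that pathway. Capitals mark the letters TGATGNAAN (C/EBP-ATF response element), GTTACA (the second Asns element) and TGANTCA (AP-1), searched on both strands, and the GC box letters GGGCGG only in Slc44a1, whose window held none of the others.
Asns (chr6:7693160-7693459, minus strand): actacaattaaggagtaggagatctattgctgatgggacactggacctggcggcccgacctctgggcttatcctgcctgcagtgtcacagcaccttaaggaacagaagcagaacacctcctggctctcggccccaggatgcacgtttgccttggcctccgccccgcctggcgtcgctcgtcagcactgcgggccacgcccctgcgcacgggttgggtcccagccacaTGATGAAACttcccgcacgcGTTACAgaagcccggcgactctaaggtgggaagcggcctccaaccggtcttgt
Tars (chr15:11399609-11399908, minus strand): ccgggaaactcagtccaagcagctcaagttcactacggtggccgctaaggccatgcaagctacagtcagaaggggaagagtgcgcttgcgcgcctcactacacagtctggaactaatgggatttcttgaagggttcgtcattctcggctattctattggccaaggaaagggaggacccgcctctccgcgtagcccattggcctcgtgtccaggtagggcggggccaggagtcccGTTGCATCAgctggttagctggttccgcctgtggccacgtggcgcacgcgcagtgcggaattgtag
Ahcyl2, first of 3 starts (chr6:29768193-29768492, plus strand): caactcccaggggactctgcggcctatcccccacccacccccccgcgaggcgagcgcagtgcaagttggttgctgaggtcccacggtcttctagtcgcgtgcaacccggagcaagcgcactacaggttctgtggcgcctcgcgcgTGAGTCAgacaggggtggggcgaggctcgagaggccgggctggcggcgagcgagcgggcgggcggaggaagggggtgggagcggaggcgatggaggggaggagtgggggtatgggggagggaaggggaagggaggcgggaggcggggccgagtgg
Slc44a1, first of 2 starts (chr4:53440163-53440462, plus strand): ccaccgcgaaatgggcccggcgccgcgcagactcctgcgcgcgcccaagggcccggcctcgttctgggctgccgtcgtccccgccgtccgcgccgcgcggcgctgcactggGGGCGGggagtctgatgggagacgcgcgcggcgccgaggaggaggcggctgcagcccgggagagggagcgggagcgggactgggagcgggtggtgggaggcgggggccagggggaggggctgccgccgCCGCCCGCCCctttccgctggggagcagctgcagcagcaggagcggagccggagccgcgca

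The Asns window held the C/EBP-ATF letters as TGATGAAAC at position -23 and GTTACA at position -3, counted at the first base of the match, with -1 the last base before the start site. The Tars window held the C/EBP-ATF letters on the opposite strand, as GTTGCATCA, at position -16. None of the 3 Ahcyl2 windows and neither Slc44a1 window held TGATGNAAN or GTTACA. Among 32851 such windows, 3.95% held TGATGNAAN, 8.25% held GTTACA and 0.694% held both. The first Ahcyl2 window held AP-1 letters, TGAGTCA, at position -105, as did 7.81% of windows in one form or other. The letters TGACGTCA (CRE), present in 1.79% of windows, were in none of these genes' windows. GC box letters were in the windows of all 4 genes shown, with 3 matches in Slc44a1, 2 in the first Ahcyl2 window and 1 each in Asns and Tars, and 35.7% of all windows held one. The Slc44a1 window was 79.7% G and C, where the median window had 52.7%. The motifs were chosen with the sequences in view, and a match is a description of letters, not a shown binding site.

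Whether a row of this table counts the gene it names had to be checked, because over most of the genome the names could not be matched to the counts. Among 687 genes with housekeeping roles, picked by symbol pattern, 134 (19.5%) reached a mean of 100 counts. The 3 genes lie on stretches where names were taken to hold, on chromosome 6 (3498382 to 30896794) and chromosome 4 (3831334 to 62426990) of GRCm38. For the 200 rows around each gene, the row exons were moved by up to 1.5 Mb each way and the log2 count was correlated across rows with the share of exon bases that fell on coding-gene exons. The best fit lay at a shift of 0 bp in all 3 windows, at r = 0.702 around Asns, 0.499 around Ahcyl2 and 0.656 around Slc44a1. Beyond 1 kb the best r was 0.552, 0.404 and 0.556, at shifts of -1050, 4150 and -7550 bp. The value for Asns thus lay just past the 1 kb limit, beside its own peak. The stretches themselves were kept where the same scan on the same counts had its best shift within 1 kb. A peak near 0 in these windows is therefore not a separate check. The Ahcyl2 window ran to 34988404, past the end of its stretch, and the Asns window began at 3072137, before the start of that stretch. The nearest housekeeping genes with 100 counts or more lay 4.18 and 4.23 Mb from Asns (Vps50 and Ndufa4) and 0.300 and 0.98 Mb from Ahcyl2 (Atp6v1f and Copg2). Slc44a1 lay between Mrpl50, 3.93 Mb away with a mean of 3042 counts, and Prpf4, 8.97 Mb away with 104 counts. Prpf4 was barely over the limit of 100 counts, so the name of the Slc44a1 row is less certain than those of Asns and Ahcyl2. The window around Tars on chromosome 15 fitted best at 50 bp (r = 0.664).

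**Figure D1:**
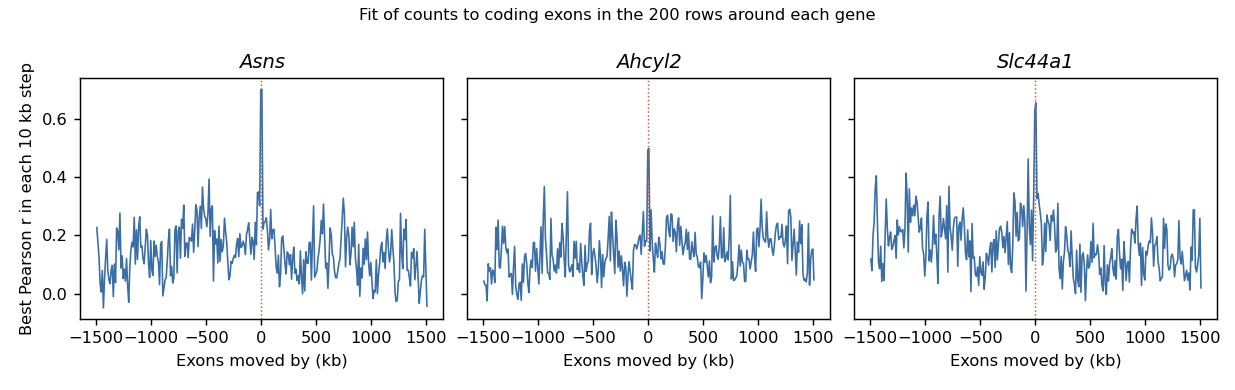
Highest Pearson correlation in each plotted step of shift (vertical axis) between log2 mean count and the share of exon bases on coding-gene exons, over 200 rows around Asns, Ahcyl2 and Slc44a1, with the row exons moved by up to 1.5 Mb each way (horizontal axis). Each curve has its peak, at 0.702, 0.499 and 0.656, in the step that begins at a shift of 0. That step is drawn at its centre, 5 kb, beside the dotted line at 0.

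Libraries held 9578086 to 14932773 counts. Mitochondrially encoded rows took 51.9% ± 5.14 of them in Sost-/- and 59.3% ± 3.92 in SostPB/- (SD, n = 4; p = 0.114 by an exact permutation test, two-sided, where 0.0286 is the smallest p that 4 against 4 libraries allow). The genotypes did not overlap in the number of rows with a count above 0, which was 15436 to 16629 in Sost-/- libraries and 14459 to 14762 in SostPB/- libraries (exact permutation p = 0.0286, the smallest possible), and the part of this difference in the results below was not tested. Levels below are in CPM, a count scaled to library size, here after TMM scaling. Of the hepatocyte markers, 8 of 12 lay on readable rows, none at 0, with a summed level of 17720 to 21171 CPM in Sost-/- and 20300 to 22261 in SostPB/-. Pon1, the paraoxonase that liver secretes, had 1746 ± 207 CPM in Sost-/- (SD, n = 4). Of the markers of stellate cells, endothelium, lymphocytes and bile duct cells, 3 of 9, 3 of 9, 3 of 9 and 1 of 6 were readable, and for macrophages 0 of 8. Their sums overlapped between the genotypes, at 97.3 to 191 against 111 to 178 CPM for stellate cell genes and 6.97 to 18.7 against 7.03 to 16.7 for the lymphocyte list. That list included Ccl21a, a chemokine gene that is not a marker of lymphocytes themselves. In bulk liver, fewer cells of a type and less RNA per cell cannot be told apart.

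None of the 3 genes passed the test between genotypes. On simulated data for this comparison, 13 of 92 changes of 2-fold (14.1%) and 56 of 90 of 4-fold (62.2%) were recovered. A gene that does not pass can therefore still differ by 2-fold. In edgeR's quasi-likelihood test, adjusted by Benjamini-Hochberg over all 10020 rows tested, 0 of the 3 had an adjusted p under 0.05, against a background of 0% of all rows called. DESeq2 and limma-voom also called 0 of the 3, where they called 0.418% and 0.00998% of the rows they tested. Before adjustment, 1 of the 3 (Asns) was lower in SostPB/- at p under 0.05, where 3.46% of all rows and 4.57% of the 460 readable nuclear rows were, or 6.45% and 8.26% counting both directions. The genotypes overlapped for all 3, while 2.17% of readable rows had every SostPB/- library below every Sost-/- one and 4.13% were apart in either direction (3.92% of all rows). The median log2 fold change was -0.01 over all rows tested and -0.21 with library totals in place of TMM. Asns had the lower mean in SostPB/- with much spread between mice, Ahcyl2 was at 49.9 to 73.4 CPM in 7 livers and far lower in 1, and Slc44a1 had a difference near 0. Mice within a group are numbered as biological replicates.

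Asns (ENSMUSG00000029752.13; chromosome 6, 7675169 to 7693254, minus strand) had 24.3, 73.9, 46.1 and 92.3 CPM in Sost-/- replicates 1 to 4, from 323, 850, 545 and 1073 counts. In SostPB/- replicates 1 to 4 it had 22.9, 28.1, 24.1 and 49.9 CPM, from 225, 379, 207 and 497 counts. The 3 lowest SostPB/- livers sat near Sost-/- replicate 1, and SostPB/- replicate 4 sat among the others of the Sost-/- group, so the groups overlapped. The Sost-/- group averaged 59.2 ± 29.99 CPM against 31.2 ± 12.6 in the SostPB/- group (SD, n = 4), a log2 difference of -0.92 (SE 0.39, 95% interval -1.79 to -0.05). Its edgeR p was 0.0396 before and 0.748 after adjustment, and the exact two-sided permutation test of log2 CPM gave p = 0.200. Leaving out Sost-/- replicate 4, the highest library, brought the log2 fold change to -0.62 (SE 0.39). Leaving out SostPB/- replicate 4 brought it to -1.24 (SE 0.40), and neither passed edgeR's adjusted threshold.

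Tars (chromosome 15, 11382301 to 11399665), the other ATF4 target that could be read, did not show the lower mean in SostPB/-. It had 106, 130, 135 and 164 CPM in Sost-/- replicates 1 to 4 and 125, 152, 147 and 186 CPM in SostPB/- replicates 1 to 4. The groups overlapped throughout, and SostPB/- differed by 0.19 in log2 (SE 0.18; adjusted p = 0.958 in edgeR), or by -0.03 with library totals alone. The difference between the fold changes of Asns and Tars was not tested. Within each genotype, however, the library with the most Asns also had the most Tars (replicate 4 of each group) and the library with the least Asns the least Tars (replicate 1 of each). In SostPB/- the order of the 4 mice was the same for both genes, and in Sost-/- replicates 2 and 3 were in the opposite order. With 4 mice a group these orders are a description. Over all 8 libraries r was 0.44 (exact permutation p = 0.277, adjusted over 7 relations 0.484) and Spearman's rho 0.52 (exact permutation p = 0.197, adjusted 0.459), and r was 0.61 without the 2 libraries farthest in Asns.

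**Figure D2:**
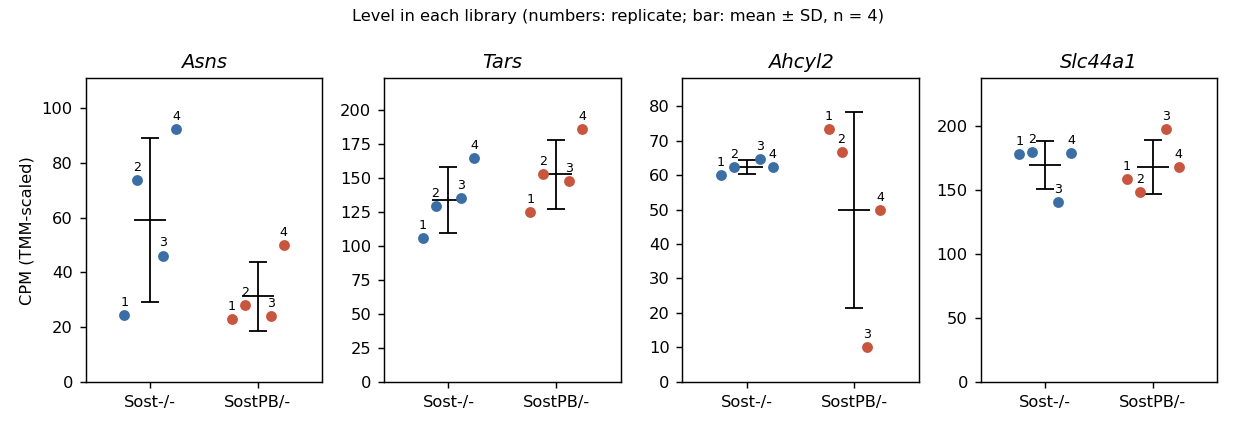
CPM (vertical axes, from 0) of Asns, Tars, Ahcyl2 and Slc44a1 in each library of Sost-/- and SostPB/-, with replicate numbers beside the points and bars for mean ± SD (n = 4). Asns spans 22.9 to 92.3 CPM with overlapping groups, and Ahcyl2 stands at 10.004 CPM in SostPB/- replicate 3 against 49.9 to 73.4 in the other 7 libraries.

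Asns also varied more between mice of a group than most genes of its level. Its dispersion in edgeR, which measures variance between replicates beyond counting noise, was 0.158, while the median of readable nuclear rows was 0.0620. Of 108 readable rows within 2-fold of its mean CPM, itself included, 101 had a lower dispersion. The coefficient of variation was 50.7% in Sost-/- and 40.4% in SostPB/-. Across the 8 libraries log2 CPM of Asns was lower where the mitochondrial share of counts was higher (Pearson r = -0.75, exact permutation p = 0.0391; Spearman rho = -0.67, exact permutation p = 0.0831). Over the 7 relations computed, the adjusted values were 0.173 and 0.291, and r was -0.53 without the 2 libraries farthest in mitochondrial share. The 4 libraries of a genotype are too few for an r within it. In Sost-/- the library with the highest share (replicate 1, 59.2%) had the least Asns and the one with the lowest (replicate 4, 47.4%) the most. In SostPB/- the library with the lowest share (replicate 1, 54.7%) had the least Asns, so the pooled relation was not seen in that order. Whether mitochondrial share has a part in the Asns values was not tested.

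Ahcyl2 (ENSMUSG00000029772.18; chromosome 6, 29768011 to 29912310, plus strand) was the steadiest of the 3 in Sost-/-, with 60.0, 62.5, 64.8 and 62.2 CPM in replicates 1 to 4. In SostPB/- it had 73.4, 66.7, 10.004 and 49.9 CPM in replicates 1 to 4, from 721, 901, 86 and 497 counts, the last equal to the Asns count in that library. The liver of SostPB/- replicate 3 lay 4.98-fold below the next lowest of its group, replicate 4, while replicates 1 and 2 lay above all 4 Sost-/- libraries. The Sost-/- group averaged 62.4 ± 1.95 CPM against 49.98 ± 28.4 in the SostPB/- group (SD, n = 4), a log2 difference of -0.32 (SE 0.44, 95% interval -1.30 to 0.66, edgeR adjusted p = 0.978). Leaving SostPB/- replicate 3 out gave 0.02 (SE 0.18), so the negative sign rests on that library.

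The low value of Ahcyl2 in SostPB/- replicate 3 was not shared by most of the genes around it. Of 22 other readable coding genes within 2 Mb with a mean of at least 50 counts, the ratio of replicate 3 to the median of the other SostPB/- libraries had a median of 1.03 and ran from 0.396 (Kcp) to 1.27. Ahcyl2 stood at 0.14998. Its neighbours Smo, the Hedgehog signal transducer, and Nrf1, a regulator of mitochondrial genes, had ratios of 1.27 and 1.05. Next after Kcp, a modulator of BMP signalling at 3.26 CPM in this library, came Hilpda, an inhibitor of lipolysis on lipid droplets, at 0.506. Of 332 readable coding rows with that mean, 329 gave a ratio and 3 had a median of 0 in the other SostPB/- libraries. Of the 329, 2 had a ratio at or under that of Ahcyl2, Ahcyl2 included, and the median was 1.04. An annotated row on the opposite strand that shares 288 exon bases with Ahcyl2 (4930528J11Rik) held 0 counts in all 8 libraries. Only counts were examined, so the part of read assignment in this low value was not tested.

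**Figure D3:**
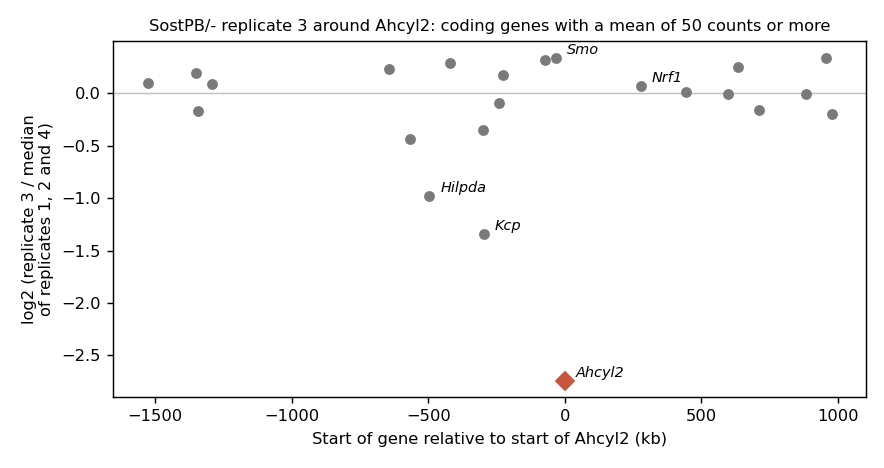
Log2 ratio of SostPB/- replicate 3 to the median of SostPB/- replicates 1, 2 and 4 (vertical axis) for Ahcyl2 and 22 readable coding genes within 2 Mb, by distance of the gene start from that of Ahcyl2 in kb (horizontal axis). Ahcyl2 lies at -2.74, and the lowest of the others, Kcp, at -1.34.

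Such a drop in a lone library was uncommon in readable coding rows. Of 313 that averaged 100 counts or more, 4 (1.28%) had a library at least 4-fold below the next lowest of its own group. The others were Mup16, of the major urinary proteins, and Glcci1 in SostPB/- replicate 1, and Ndufa5, a subunit of respiratory complex I, listed at 0 in SostPB/- replicate 2 against 131 CPM in the next. Mup16 belongs to a family of near-identical copies whose reads cannot be told apart. All 4 were in SostPB/- libraries, which also had fewer rows above 0, in 3 different mice, and 1 of them in replicate 3. These genes were named after their values were seen. SostPB/- replicate 3 also had the highest mitochondrial share, 64.3% against 47.4% to 59.2% in the rest, and the part of that share in the Ahcyl2 value was not tested. The correlation of Ahcyl2 with mitochondrial share was r = -0.64 (exact permutation p = 0.0493, adjusted 0.173; Spearman rho = -0.43, exact permutation p = 0.299, adjusted 0.524), and r = -0.36 without the 2 libraries farthest in that share, Sost-/- replicate 4 and SostPB/- replicate 3.

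Slc44a1 (ENSMUSG00000028412.18; chromosome 4, 53440413 to 53622478, plus strand) had the most counts of the 3 genes and the smallest difference. It had 178, 180, 141 and 178 CPM in Sost-/- replicates 1 to 4 and 158, 149, 197 and 167 CPM in SostPB/- replicates 1 to 4. Replicate 3 was the lowest of the Sost-/- group and replicate 3 the highest of the SostPB/- group, and the groups overlapped. The Sost-/- group averaged 169 ± 18.9 CPM against 168 ± 21.1 in the SostPB/- group (SD, n = 4), a log2 difference of -0.01 (SE 0.15; adjusted p = 0.997 in edgeR). The 95% interval, -0.35 to 0.32, spans levels in SostPB/- from 0.787 to 1.25 times those in Sost-/-, so changes of that size could not be told from none. An antisense row sharing 310 exon bases with it (1700060J05Rik) held at most 14 counts in a library. The dispersion of Slc44a1 was 0.0372, and 37 of 119 readable rows within 2-fold of its mean, itself included, had a lower one.

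**Figure D4:**
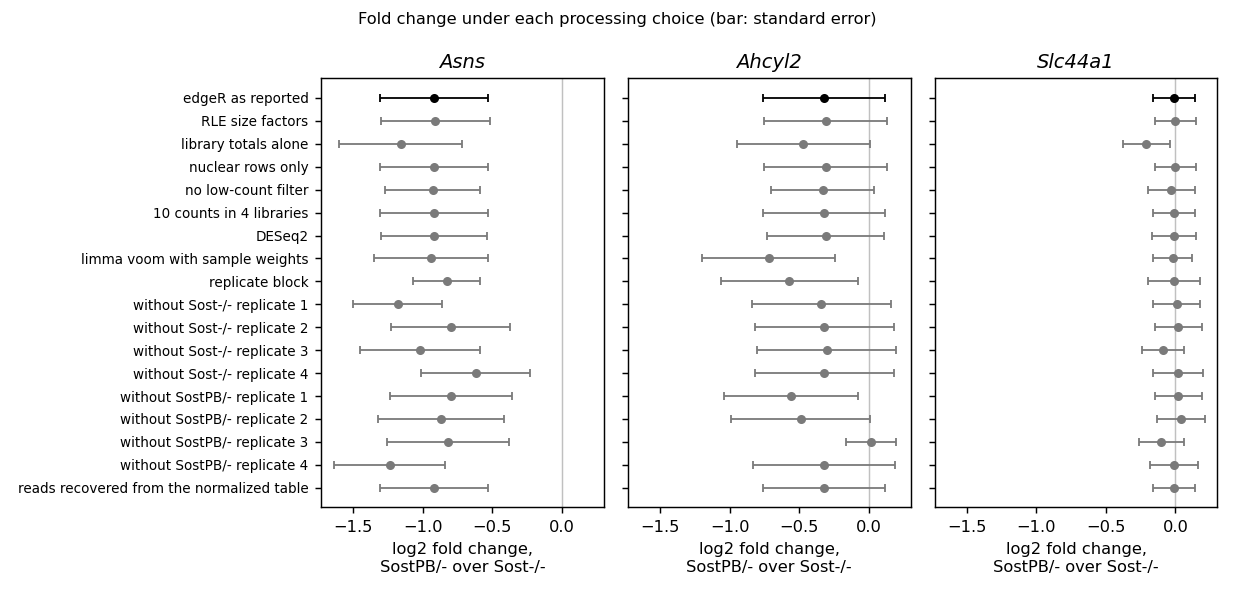
Log2 fold change of SostPB/- over Sost-/- (horizontal axis, bars for the standard error) of Asns, Ahcyl2 and Slc44a1 as reported and under each other processing choice (vertical axis). Asns runs from -1.24 to -0.62, Ahcyl2 reaches 0.02 without SostPB/- replicate 3, and Slc44a1 stays between -0.21 and 0.04.

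Per length of transcript, Slc44a1 and Asns were at like levels in Sost-/- and Ahcyl2 was far lower. Dividing CPM by the length of all annotated exons (6945, 2735 and 18255 bases) gave 24.4 ± 2.73 CPM per kb for Slc44a1, 21.6 ± 10.96 for Asns and 3.42 ± 0.107 for Ahcyl2 in Sost-/- (SD, n = 4). In SostPB/- the same level was 24.2 ± 3.04 for Slc44a1, 11.4 ± 4.61 for Asns and 2.74 ± 1.56 for Ahcyl2. In Sost-/- the libraries ran from 8.90 to 33.8 CPM per kb for Asns, a range that held all Slc44a1 values (20.3 to 25.9). In SostPB/- every library had more Slc44a1 than Asns per kb. Levels of different genes were not tested against each other. Ahcyl2 is annotated with exons of many isoforms, so its length, and with it this level, depends on which of them the liver makes. The lengths used for Slc44a1 and Asns also count all annotated exons and carry the same limit.

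**Figure D5:**
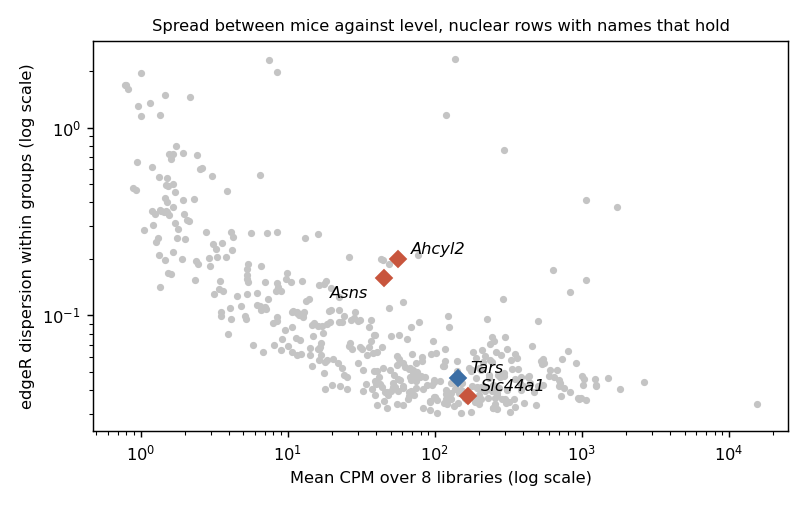
EdgeR dispersion within groups (vertical axis, log scale) against mean CPM over the 8 libraries (horizontal axis, log scale) for the 460 readable nuclear rows tested, each a grey point. Asns (0.158) and Ahcyl2 (0.200) lie above most rows of their level, while Slc44a1 (0.0372) lies above 37 of 119 rows of its level, and Tars is at 0.0462.

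Little of the surrounding pathways could be read. Of 24 genes listed under the methionine cycle and transsulfuration, 1 lay on readable rows. It was Ahcyl2, which is not known as a working hydrolase, so no gene known as a working enzyme of that list could be read. Of 25 genes of choline transport and phosphatidylcholine synthesis, also 1 (Slc44a1) lay on readable rows. Of 41 ATF4 and amino acid stress targets found in the table by symbol, 2 (Asns and Tars) did, and of 12 genes that sense amino acid and eIF2 stress, 0. None of these readable genes was higher and none lower in edgeR's adjusted test. The rows named Ahcy and Ahcyl1, the nearest relatives of Ahcyl2, lie on unreadable stretches. Of 16 readable cell type markers tested, 0 passed edgeR's adjusted test, with log2 fold changes from -0.48 to 0.26. Before adjustment, 2 had an edgeR p under 0.05, where 8.26% of readable nuclear rows and 6.45% of all rows did. These 2 markers were enzymes of hepatocytes, Aass of lysine breakdown at -0.40 (SE 0.14) and Grhpr of glyoxylate removal at -0.48 (SE 0.19). The genotypes overlapped for Grhpr but not for Aass, and 4.13% of readable rows were apart in either direction.

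The genes whose pattern over the 8 libraries was most like each of the 3 were taken from the other 331 of those 332 readable coding rows, by Pearson's r of log2 CPM, as a description of libraries that share depth and scaling. For Asns they included Ncbp1, of the nuclear cap-binding complex (r = 0.89), the RNA-binding nuclease Snd1 (0.84), Nipsnap3b (0.83) and the nucleolar gene Nol6 (0.80). Ncbp1 spanned a narrower range, 109.1 to 151 CPM, with its highest value in Sost-/- replicate 4, as for Asns. For Slc44a1 they were the proteoglycan gene Sdc2 (0.97), Fbxl4 (0.94), the kinase gene Map3k7 (0.89), St7 (0.88) and the replication origin gene Orc3 (0.87). Sdc2 had its lowest value, 424 CPM, in Sost-/- replicate 3 and its highest, 735 CPM, in SostPB/- replicate 3, the same libraries as Slc44a1.

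For Ahcyl2 the most alike were the ligand gene Wnt2 (0.95), Kcp (0.83), Rusc2 (0.81), Fam214b (0.81) and Zfp622 (0.80), and this likeness leaned on SostPB/- replicate 3. Without that library the r with Wnt2 was 0.11 and with Kcp 0.40, while those with Rusc2, Fam214b and Zfp622 were 0.69, 0.67 and 0.70. Wnt2 was low everywhere, at 3.48 to 12.6 CPM in 7 libraries, and listed at 0 in SostPB/- replicate 3. Among the 3 genes themselves, r over the 8 libraries was 0.31 for Asns with Ahcyl2, 0.08 for Asns with Slc44a1 and -0.63 for Ahcyl2 with Slc44a1. By exact permutation, p was 0.583, 0.858 and 0.0788 (adjusted over 7 relations 0.680, 0.858 and 0.184), and Spearman's rho was -0.14, 0.14 and -0.67 with exact permutation p of 0.752, 0.752 and 0.0831 (adjusted 0.752, 0.752 and 0.291). Without the 2 libraries farthest from the median of the first gene, r was 0.24, -0.45 and -0.53. None of the 3 relations had a p under 0.05.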

How the data were processed

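Liver RNA of 8 mice (4 Sost-/-, 4 SostPB/-) was measured, with groups and replicate numbers from the sample titles. The authors deposited counts per gene row, 9578086 to 14932773 per library, and a second table whose signal, by its values, is the deposited count divided by 1 size factor per library (0.782 to 1.24). After multiplication by that factor 100% of its values were whole within 0.001. HISAT2, StringTie and DESeq2 appear in the submitters' processing notes, with mm10 as build and no versions. The annotation release and strand setting are not stated in those notes, so reads from overlapping antisense genes cannot be told apart.

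Positions came from GENCODE M21 (GRCm38) by gene ID without version (52083 of 55416 rows). Readable rows are 1433 nuclear rows on 3 stretches (chromosomes 4, 6 and 15) found as runs of housekeeping genes averaging 100 counts or more (assumed shares 0.95 inside and 0.15 outside, minimum score 5) and kept when the best shift, in steps of 50 bp, lay within 1 kb. The family pattern was set with the stretches of an earlier analysis known.

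The main test was edgeR 4.0.16 (R 4.3.3) with filterByExpr, TMM, glmQLFit and glmQLFTest on all 8 libraries, adjusted p under 0.05. The standard error is the log2 fold change over the square root of F. DESeq2 1.42.0, limma 3.58.1 with voom, other scalings and filters, a replicate block and omission of each library in turn were tried as alternatives, and the recovered reads were added after seeing the data. Replicate numbers are not stated to pair mice. Named genes were the 3 genes, genes of fixed lists on readable rows averaging 10 counts or more (given singly for Tars, Pon1, Aass and Grhpr, otherwise as sums or ranges), and the 5 most alike for each gene, apart from an item not reported here. The genes and lists were chosen with earlier results of these data known. Scripts were tested on simulated data.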

Additional observations from a re-analysis of the deposited data

Results flagged for a closer look

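In 44 sets of 4 libraries (each readable gene of the lists and the mitochondrial share, in each genotype), a library was set apart where its gap to the nearest was a large part of the range of its group (Dixon's limit at 95%). Chance gives about 1 in 20, and 2 stood out. Slc44a1 was low in Sost-/- replicate 3, at 141 CPM against 178 to 180 in the other 3. Grhpr was high in SostPB/- replicate 1, at 311 CPM against 217 to 229. Ahcyl2 in SostPB/- replicate 3 did not meet this limit.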

How the results depend on the processing

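Each of 17 alternatives was run on each result. Asns kept a negative log2 fold change in all of them and passed the adjusted threshold in none (adjusted p from 0.407 to 1). Leaving out 1 library gave -1.24 to -0.62. Ahcyl2 was -0.72 with limma-voom and sample weights, and leaving out 1 library gave -0.56 to 0.02, the latter without SostPB/- replicate 3. Slc44a1 was -0.21 with library totals alone, a setting that put the median of all rows at -0.21, and leaving out 1 library gave -0.10 to 0.04, positive in 5 of 8 cases. Tars was -0.03 with library totals alone. Of all rows, edgeR called 0 in the reported fit, with 646 (6.45%) at an unadjusted p under 0.05. It called 2 without a low-count filter and 0 to 4 when leaving out 1 library (4 without Sost-/- replicate 1), DESeq2 called 53 and limma-voom 1. None of these settings called a listed gene on readable rows. With the replicate block edgeR called 0 rows, Asns was at -0.83 (SE 0.24, edgeR adjusted p = 0.979), Ahcyl2 at -0.57 and Slc44a1 at -0.01. Same-numbered libraries did not deviate together (r from -0.04 to 0.04 over rows, and 1 of 4 Sost-/- libraries correlated best with its own number). The block changed no call. The recovered reads gave 10020 rows tested, 0 called and the same fold changes.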
